A study of Mus musculus with 4 samples.

Results

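The 8 genes described here are S100a4, S100a6, S100a10, S100a11, Lgals1, Lgals3, Anxa2 and Crip1, out of 13314 genes in the deposited count table. They were chosen by name as S100, galectin and annexin genes, with Crip1, because several of them stand out in 1 of the authors' cell clusters, number 5. The levels across clusters therefore chose the genes, and they are given as a description with no test. All 8 genes had UMIs in every library, where a UMI marks 1 captured RNA molecule.

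The cells are CD4 T cells of the mesenteric lymph nodes, which drain the intestine, taken from male mice and profiled one by one in droplets (10x 3′ v3 kit). Each of the 4 groups had 1 library: colonized Foxp3CNS1-, colonized Foxp3GFP, germ-free Foxp3CNS1- and germ-free Foxp3GFP mice. Colonized mice were germ-free at first, received the fecal microbiota of specific-pathogen-free animals and were examined 9 days later, while the germ-free mice stayed without microbes. Foxp3GFP mice carry a GFP reporter for Foxp3, the transcription factor that defines regulatory T (Treg) cells, and Foxp3CNS1- mice lack CNS1, a Foxp3 enhancer used when Treg cells are induced outside the thymus. The lymph nodes of 3 mice were pooled for each library, and GFP-positive and GFP-negative CD4 T cells were sorted and mixed in equal parts, so the share of Treg cells was set by the sort. The sources used here give neither strain background nor age. Since every group is 1 pooled library, differences between groups have no replicate check and cannot be told apart from differences between libraries.

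Most S100 proteins are small calcium sensors that change shape on binding calcium and then bind partner proteins. S100a10 pairs with annexin A2 in a complex that links membranes to the actin skeleton, and galectins are lectins that bind sugars on cell-surface proteins. In mouse and human T cells several of these genes are low in naive cells and high in effector and memory cells, and they are used as markers of activated, migrating cells.

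After the authors' filter 16948 cells were analysed, with 3533 to 5406 cells and 9360112 to 17929193 UMIs in a library. Median UMIs per cell were 2763.5 and 2832 in the colonized Foxp3CNS1- and Foxp3GFP libraries, against 2286 and 2399 in the germ-free Foxp3CNS1- and Foxp3GFP libraries. Of 16791 distinct cell barcodes, 157 (0.935%) occurred in more than 1 library. T cell genes (Cd3e, Cd3d, Cd3g, Cd4 and Trac) were detected in all 3 cell classes used below, at a summed 3473 to 4896 CPM in the single libraries, where CPM (counts per 1000000) is the number of UMIs of a gene scaled to 1000000 UMIs of the cells named. The classes are cluster 5, which has no cell type name here, the Treg-like clusters 0, 3 and 6, and the naive-like clusters 1 and 2. Over the 3 classes the median depth was 2682, 2388 and 2697 UMIs per cell. In sums over cells, fewer cells with a gene and less RNA per cell cannot be told apart.

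The genes lie on 5 chromosomes of the mouse genome (mm10, GENCODE annotation vM21), all on the plus strand and all protein-coding. S100a4 (chr3:90603771-90606045) and S100a6 (chr3:90612882-90624181) both lie in the S100 gene cluster of chromosome 3, with 6836 bases between them. Farther along the same chromosome S100a11 (chr3:93520488-93526287) and S100a10 (chr3:93555080-93564643) are separated by 28792 bases. Anxa2 is at chr9:69453620-69491795, Crip1 at chr12:113146316-113153879, Lgals3 at chr14:47367751-47386160 and Lgals1 at chr15:78926725-78930465.

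Promoter windows from RefSeq (GRCm38.p6, the assembly named mm10 at UCSC) were found for 6 of the 8 genes, and each runs from 250 bases before to 50 bases after an annotated start. The windows of S100a4 (chr3:90603520-90603819), S100a6 (chr3:90612644-90612943), S100a11 (chr3:93520246-93520545) and Anxa2 (chr9:69453433-69453732), all on the plus strand, are shown because the first pair and the second pair moved differently in the comparisons below. Capitals mark matches on either strand to the TATA box (letters TATAAA), the GC box bound by Sp factors (letters GGGCGG), the AP-1 site (letters TGANTCA) and the Runx site (letters TGTGGTT), and no match here overlaps one to another motif.
S100a4: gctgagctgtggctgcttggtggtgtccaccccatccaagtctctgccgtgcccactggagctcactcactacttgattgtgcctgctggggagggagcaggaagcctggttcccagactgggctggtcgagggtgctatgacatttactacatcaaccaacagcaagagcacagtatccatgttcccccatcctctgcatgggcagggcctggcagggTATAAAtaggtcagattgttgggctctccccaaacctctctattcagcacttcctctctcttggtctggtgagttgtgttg
S100a6: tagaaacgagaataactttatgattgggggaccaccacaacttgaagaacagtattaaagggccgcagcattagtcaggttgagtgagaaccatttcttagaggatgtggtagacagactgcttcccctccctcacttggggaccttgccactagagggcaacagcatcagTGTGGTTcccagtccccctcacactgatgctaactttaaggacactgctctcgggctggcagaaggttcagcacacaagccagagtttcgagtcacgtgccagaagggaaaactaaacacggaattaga
S100a11: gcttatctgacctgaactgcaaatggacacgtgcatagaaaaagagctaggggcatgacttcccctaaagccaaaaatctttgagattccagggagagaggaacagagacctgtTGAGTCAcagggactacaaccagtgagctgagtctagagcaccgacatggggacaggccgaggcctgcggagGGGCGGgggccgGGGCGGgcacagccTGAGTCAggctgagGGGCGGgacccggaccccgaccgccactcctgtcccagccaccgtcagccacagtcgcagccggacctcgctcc
Anxa2: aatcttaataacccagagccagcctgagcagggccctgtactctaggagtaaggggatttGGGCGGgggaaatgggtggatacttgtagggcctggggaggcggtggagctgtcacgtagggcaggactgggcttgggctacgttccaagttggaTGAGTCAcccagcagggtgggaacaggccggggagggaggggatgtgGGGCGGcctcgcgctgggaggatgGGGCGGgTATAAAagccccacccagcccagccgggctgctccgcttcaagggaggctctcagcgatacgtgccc
S100a4 has 1 TATA box 31 bases before its start and S100a6 has 1 Runx-type match 79 bases before its start. S100a11 has 3 GC boxes and 2 AP-1 matches, while Anxa2 has 1 TATA box, 3 GC boxes and 1 AP-1 match. Over all 32851 windows of this length, 13.6% hold the TATA box, 35.7% the GC box, 7.81% the AP-1 site and 5.27% the Runx site. A match is only a run of letters in this window, and its use in these cells was not tested.

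Cluster 5 held 1693 of the 16948 cells (9.99%) and 10.4% of the UMIs. These cells carried 43.0% of all S100a4 UMIs, 40.2% of Lgals3, 36.1% of S100a6, 26.6% of Anxa2, 23.8% of Lgals1, 23.4% of S100a11, 19.8% of S100a10 and 15.5% of Crip1 UMIs. Colonized Foxp3CNS1- gave 819 of the 1693 cells. In single libraries cluster 5 held 5.08% to 15.1% of the cells. Its share of the S100a4 UMIs there ran between 25.2% and 50.4%, and its share of the Lgals3 UMIs between 13.2% and 49.9%. Among genes that were found in 10% or more of the cluster 5 cells, S100a4 had the highest ratio of cluster 5 to the other cells, 6.49-fold. S100a6 followed in the third place at 4.87-fold and Anxa2 in the fifth at 3.11-fold, with Ccr2, the chemokine receptor of inflammatory effector cells, in the second place. These ranks describe the authors' clustering, which used the expression of the same cells.

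S100a4, a partner of non-muscle myosin in cell movement, had 158 CPM in cluster 5 over all libraries, 69.7 CPM in cluster 7, which Actb and Slc39a1 lead, and 57.5 CPM in cluster 8, led by genes of cell division such as Bub1. In single libraries its level ran between 48.1 and 237 CPM in cluster 5 and between 53.2 and 80.9 CPM in cluster 7. These ranges overlap, so the order of the first and second cluster is not fixed across libraries, and cluster 7 was the higher one in germ-free Foxp3CNS1-. At the other end were the naive-like clusters 2 and 1, with 4.17 and 1.96 CPM.

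S100a6, a calcium sensor that binds the ubiquitin-pathway protein Cacybp, had 539 CPM in cluster 5, 293 CPM in cluster 7 and 260 CPM in cluster 3, the Treg-like cluster led by Epcam. Cluster 5 was the highest in 4 of 4 libraries, although its range of 309 to 663 CPM overlapped the 137 to 455 CPM of cluster 7. S100a10, the annexin A2 partner, had 1124 CPM in cluster 5 and 848 CPM in cluster 3. Its library ranges, 1024 to 1240 CPM in cluster 5 and 825 to 988 CPM in cluster 3, did not overlap.

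Cluster 5 was not the highest for every gene. S100a11, which binds annexin A1, had 803 CPM in cluster 9, a group of 84 cells led by the follicular helper genes Sostdc1 and Il4, and 618 CPM in cluster 5. In single libraries it ran between 389 and 1001 CPM in cluster 9 and between 533 and 706 CPM in cluster 5. Cluster 5 was the higher one in colonized Foxp3CNS1-. Lgals1, a secreted galectin that binds T cell glycoproteins such as CD7, CD43 and CD45, had 1274 CPM in cluster 8, 951 CPM in cluster 5 and 803 CPM in cluster 7. Cluster 8 was the highest for Lgals1 in 4 of 4 libraries, and its median depth of 6716 UMIs per cell is far above the 2682 of cluster 5. Anxa2, a calcium-dependent membrane-binding protein, had 127 CPM in cluster 8, 126 CPM in cluster 9 and 99.3 CPM in cluster 5. Its library ranges overlapped, at 64.1 to 158 CPM in cluster 8, 80.5 to 191 CPM in cluster 9 and 93.8 to 105 CPM in cluster 5. The order of these clusters is thus not fixed across libraries, and cluster 7 was the highest in colonized Foxp3CNS1-.

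Lgals3, the galectin that forms lattices on surface glycans, had 70.7 CPM in cluster 7 and 53.7 CPM in cluster 5. Its cluster 7 level was set by 1 library, since colonized Foxp3CNS1- had 206 CPM there and the lowest library 26.6 CPM. Crip1, a small LIM-domain protein, had 1243 CPM in cluster 5, 1061 CPM in cluster 8 and 1055 CPM in cluster 7. It was the 1 gene of the 8 with a higher level in naive-like cells, at 893 CPM, than in Treg-like cells, at 609 CPM.

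**Figure D1:**
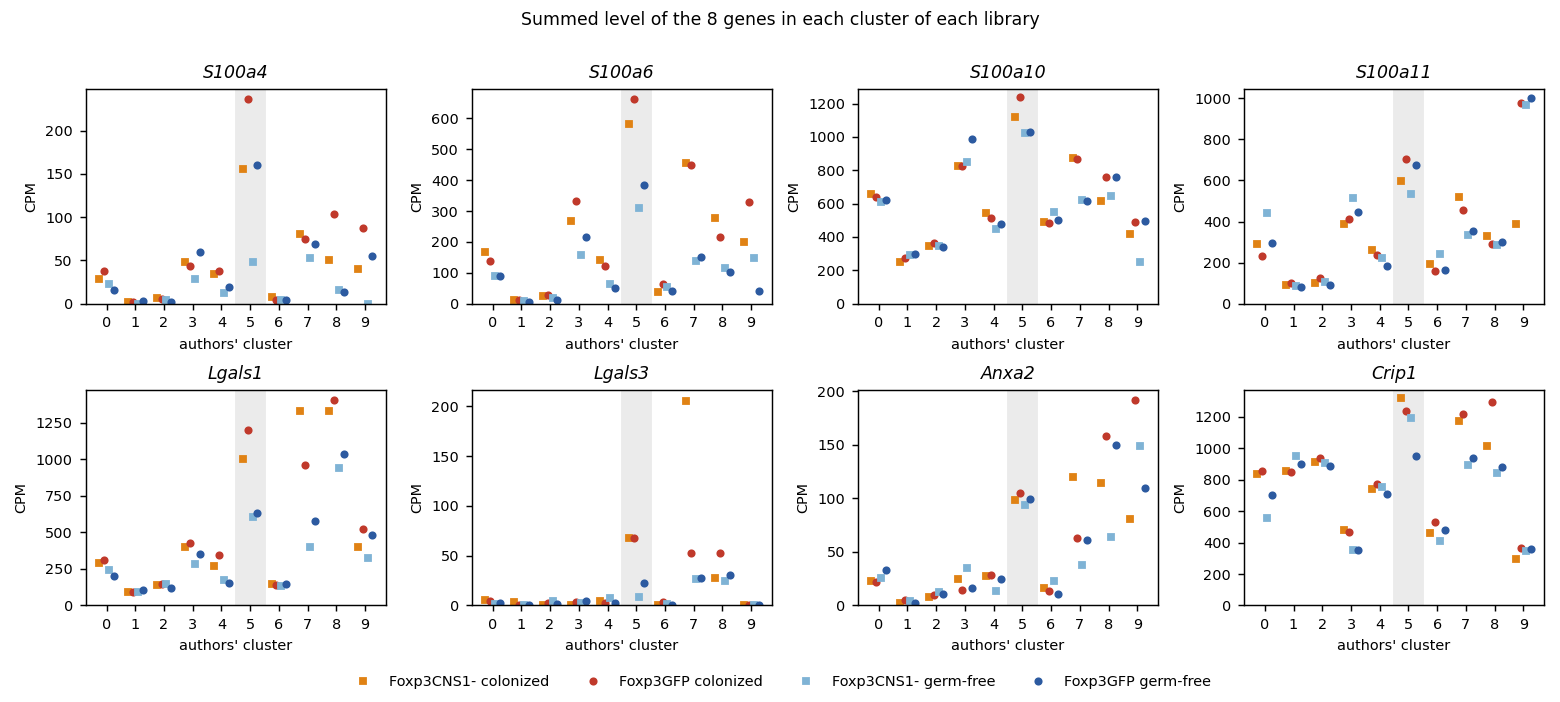
Summed level (CPM) of each of the 8 genes in the authors' clusters 0 to 9, with 1 point for each library. Cluster 5 is highest in 4 of 4 libraries for S100a6 and S100a10 and in 3 of 4 for S100a4 and Crip1, while cluster 8 is highest in 4 of 4 for Lgals1.

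Between cluster 5 and the naive-like class the genes differed in how much of the gap lay in the share of cells with a UMI. S100a4 had a UMI in 13.8% of cluster 5 cells, 4.11% of Treg-like cells and 0.636% of naive-like cells, and in 9.54%, 2.53% and 0.518% once every cell was thinned to 1500 UMIs. S100a6 had a UMI in 32.7% of cluster 5, 17.8% of Treg-like and 2.81% of naive-like cells (25.1%, 12.2% and 1.73% thinned). Free RNA in droplets adds UMIs to cells of every type, and the low shares of these genes in naive-like cells of similar depth give the most it could have added there. For Lgals3 the shares were 4.55%, 0.483% and 0.337% (2.91%, 0.253% and 0.230% thinned), so the Treg-like share is near the naive-like one. Anxa2 had 14.6%, 4.76% and 1.70% (8.48%, 2.63% and 0.978% thinned).

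The other genes were found in many naive-like cells too. S100a10 had a UMI in 80.8% of cluster 5, 74.5% of Treg-like and 54.3% of naive-like cells (66.8%, 58.0% and 35.6% thinned). For S100a11 the shares were 56.8%, 42.8% and 21.5% (44.3%, 30.7% and 12.4% thinned), and for Lgals1 54.3%, 34.2% and 21.3% (42.5%, 24.6% and 13.3% thinned). Crip1 again stood apart with 77.4%, 58.0% and 76.9% (65.5%, 46.2% and 61.8% thinned), so it was detected in naive-like cells more often than in Treg-like cells.

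Single cells differed widely within cluster 5. The 10 cells with the most S100a4 UMIs held 20.8% of that gene's 845 UMIs there, and 1 cell held 26. For Lgals3 the 10 highest cells held 45.5% of 288 UMIs, so its levels rest on few cells. Lgals1 reached 105 UMIs in 1 cell. S100a10 and S100a11 were spread more evenly, with 5.60% and 5.88% of their UMIs in the 10 highest cells.

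Some cells held most of the genes at once. At 1500 UMIs per cell, 94 of 1615 cluster 5 cells (5.82%) had UMIs of at least 6 of the 8 genes, against 26 of 5922 Treg-like cells (0.439%) and 0 of 5213 naive-like cells, which allows a share of up to 0.0575%. The cluster 5 share was 7.01% in colonized Foxp3CNS1- and 7.85% in colonized Foxp3GFP, against 2.72% in germ-free Foxp3CNS1- and 2.09% in germ-free Foxp3GFP. In both genotypes the colonized library was thus the higher one, on 8 cells in germ-free Foxp3CNS1- and 4 cells in germ-free Foxp3GFP.

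S100a4 and S100a6 were also found together within each library. In colonized Foxp3CNS1- cluster 5 cells thinned to the same depth, S100a6 had a UMI in 72.2% of cells with an S100a4 UMI and in 21.3% of cells without one. The corresponding shares were 72.7% and 22.1% in colonized Foxp3GFP, 46.2% and 21.0% in germ-free Foxp3CNS1-, and 50.0% and 14.5% in germ-free Foxp3GFP. The cells with an S100a4 UMI numbered 90, 33, 13 and 18 in the same order of libraries. Of the 7 other genes, S100a6, S100a10, S100a11 and Lgals1 (4 of 7) were found more often with S100a4 than without it in 4 of 4 libraries. Lgals3 and Anxa2 were in 3 of 4 libraries and Crip1 in 2 of 4. Lgals3 had a UMI in 17.8% of the cells with S100a4 and 1.83% of those without it in colonized Foxp3CNS1-, and in 21.2% and 1.34% in colonized Foxp3GFP. In germ-free Foxp3CNS1- it had one in 0 of 13 cells with S100a4, which allows a share of up to 23.1%, and in 1.42% of cells without it, and in germ-free Foxp3GFP in 1 of 18 cells (5.56%) and 1.16%. Crip1 was found in 61.1% of cells with and 67.6% of cells without S100a4 in germ-free Foxp3GFP. How often the genes would meet by their single shares alone was not computed.

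**Figure D2:**
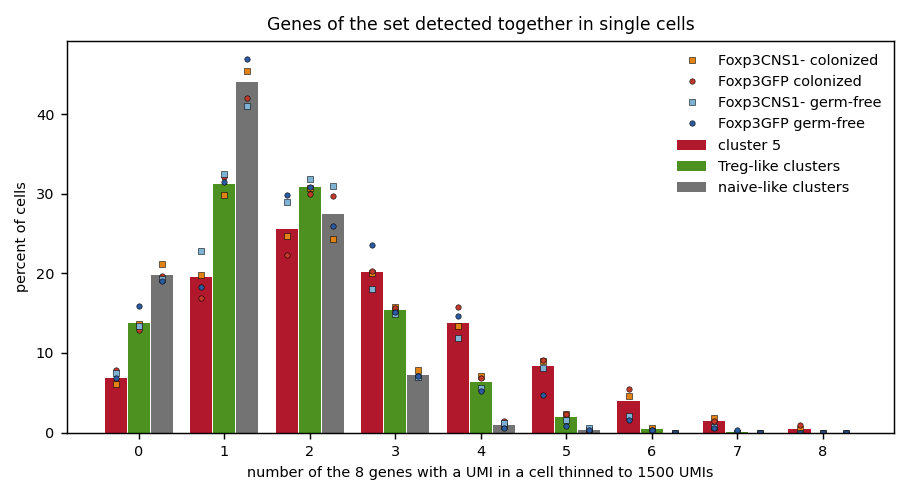
Share of cells (percent) by the number of the 8 genes with a UMI, in cells thinned to 1500 UMIs, for cluster 5, the Treg-like and the naive-like class. Cells with 6 or more of the genes make up 5.82% of cluster 5 and 0.439% of the Treg-like class, and none were seen among 5213 naive-like cells.

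Across 40 sums (10 clusters in 4 libraries) the logarithmic levels of 7 of the genes went along with the mean of the others. Pearson's r with the mean of the other 7 was 0.94 for Lgals1, 0.87 for S100a4 and S100a6, 0.78 for S100a10, 0.76 for Lgals3 and Anxa2, and 0.68 for S100a11, but 0.19 for Crip1. Of 6666 genes with at least 500 UMIs, those most like the mean of the 8 were Gna15 and Atp5l (r = 0.89 each), Actg1 (0.88), Ppp1ca and Lamtor5 (0.86 each), and Clic1, Arpc1b and Cdc42 (0.85 each). The lowest were Atp1b1 (r = -0.62), Fau (-0.61) and Rabac1, Pdk1 and Tmie (-0.60 each). The 40 sums share libraries and clusters that the same genes helped to define, so these values carry no test.

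In cluster 5 the colonized libraries were higher than the germ-free ones for S100a6, Lgals1 and Lgals3 in both genotypes, and S100a4 was far higher in Foxp3CNS1-. S100a11, Anxa2 and S100a10 differed little. A gene was counted as past 1.5-fold when its ratio reached 1.5 in either direction with at least 50 UMIs over both libraries, and the intervals below are exact 95% intervals that cover counting error only. In Foxp3CNS1-, 4 of the 8 genes were past 1.5-fold, all higher in colonized mice, where 12.6% of 6013 measured genes were past it in either direction. In Foxp3GFP, 3 of the 8 were, all higher in colonized mice, against 14.1% of 4027 genes. The median log2 ratio of the 8 genes was 0.44 in Foxp3CNS1- and 0.47 in Foxp3GFP, beside -0.02 and 0.02 for all measured genes. The earlier results that chose the genes included these libraries, and nothing is read from these counts beyond their size.

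S100a4 in cluster 5 had 156 CPM in colonized Foxp3CNS1- and 237 CPM in colonized Foxp3GFP, against 48.1 and 161 CPM in germ-free Foxp3CNS1- and Foxp3GFP. The groups overlap, because germ-free Foxp3GFP was above colonized Foxp3CNS1-. The log2 ratio of colonized over germ-free was 1.69 (interval 1.23 to 2.20) in Foxp3CNS1- and 0.56 (0.21 to 0.93) in Foxp3GFP. The germ-free Foxp3CNS1- level rests on 40 UMIs in 21 cells.

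S100a6 had 583 and 663 CPM in the colonized Foxp3CNS1- and Foxp3GFP libraries, against 309 and 383 CPM in the germ-free Foxp3CNS1- and Foxp3GFP libraries. Both colonized libraries were above both germ-free ones. The log2 ratio was 0.92 (0.72 to 1.11) in Foxp3CNS1- and 0.79 (0.57 to 1.02) in Foxp3GFP. S100a6 was also higher outside cluster 5, namely in the colonized library in 6 of the 7 other measured clusters of Foxp3CNS1-, 5 of them past 1.5-fold, and in 7 of 7 of Foxp3GFP, 6 of them past it.

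Lgals1 had 1005 and 1204 CPM in colonized Foxp3CNS1- and Foxp3GFP, against 608 and 633 CPM in germ-free Foxp3CNS1- and Foxp3GFP, with no overlap between colonized and germ-free libraries. Its log2 ratio was 0.73 (0.59 to 0.87) in Foxp3CNS1- and 0.93 (0.76 to 1.10) in Foxp3GFP. Lgals3 had 67.3 and 67.5 CPM in colonized Foxp3CNS1- and Foxp3GFP, from 188 and 81 UMIs. In germ-free Foxp3CNS1- and Foxp3GFP it had 8.42 and 22.4 CPM, from only 7 and 12 UMIs, so the ratios have wide intervals. They were 3.00 (1.93 to 4.33) in Foxp3CNS1- and 1.59 (0.71 to 2.60) in Foxp3GFP on the log2 scale.

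The remaining genes stayed under 1.5-fold in both genotypes. S100a10 had 1121 and 1240 CPM in colonized Foxp3CNS1- and Foxp3GFP, against 1024 and 1031 CPM in germ-free Foxp3CNS1- and Foxp3GFP, with log2 ratios of 0.13 and 0.27. Crip1 had 1318 and 1234 CPM in colonized Foxp3CNS1- and Foxp3GFP, against 1190 and 954 CPM in germ-free Foxp3CNS1- and Foxp3GFP, with log2 ratios of 0.15 and 0.37. For both genes the colonized libraries were above the germ-free ones without overlap, by amounts well under 1.5-fold. S100a11 had 596 and 706 CPM against 533 and 674 CPM, and Anxa2 had 98.5 and 105 CPM against 93.8 and 99.0 CPM, in colonized Foxp3CNS1- and Foxp3GFP against germ-free Foxp3CNS1- and Foxp3GFP. Their colonized and germ-free libraries overlapped, and the intervals of the Anxa2 log2 ratio were -0.30 to 0.45 in Foxp3CNS1- and -0.39 to 0.58 in Foxp3GFP.

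**Figure D3:**
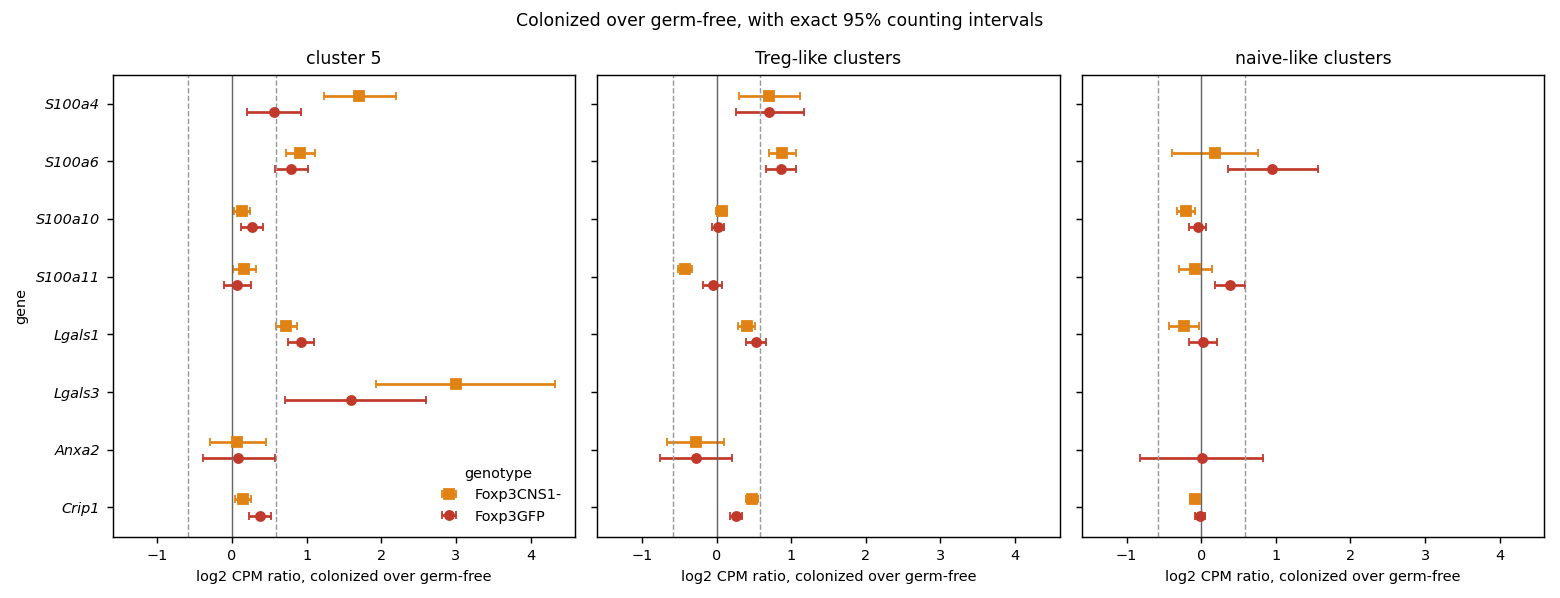
Log2 ratio of CPM in colonized over germ-free libraries for the 8 genes in cluster 5, the Treg-like and the naive-like class, by genotype, with exact 95% counting intervals. In cluster 5 Lgals3 is at 3.00 in Foxp3CNS1- and 1.59 in Foxp3GFP, and Anxa2 lies at 0.07 and 0.09.

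Relatives of the 8 genes were mostly too scarce to be measured in cluster 5. Of the other S100 genes only S100a13, a secretion-linked family member, had enough UMIs, with log2 ratios of 0.17 in Foxp3CNS1- and 0.49 in Foxp3GFP. Anxa7 was past 1.5-fold (0.67 in Foxp3CNS1-) among 4 measured other annexins, and none of the 4 was in Foxp3GFP. Of the other galectins and their binding protein, 1 of 3 measured genes in Foxp3CNS1- and 1 of 2 in Foxp3GFP was past 1.5-fold. It was Lgals3bp, the secreted galectin-3 binding protein, higher in colonized mice with log2 ratios of 1.24 in Foxp3CNS1- and 1.21 in Foxp3GFP. The share of all measured genes past the line in either direction was 12.6% in Foxp3CNS1- and 14.1% in Foxp3GFP. With Lgals3bp the list of other galectins summed to 188 CPM in colonized and 189 CPM in germ-free Foxp3CNS1-. In Foxp3GFP it summed to 211 CPM in colonized and 166 CPM in germ-free mice. Of the known binding partners, Lag3, a coinhibitory receptor that galectin-3 binds, had 165 and 323 CPM in colonized Foxp3CNS1- and Foxp3GFP, against 153 and 118 CPM in germ-free Foxp3CNS1- and Foxp3GFP. It was past 1.5-fold in Foxp3GFP (1.46) and not in Foxp3CNS1- (0.11). Ahnak, the scaffold that the S100a10 and annexin A2 complex binds, was lower by a log2 ratio of -0.76 in Foxp3GFP and -0.36 in Foxp3CNS1-.

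Of the effector and memory genes, 2 of 14 measured were past 1.5-fold higher in Foxp3CNS1- and 7 of 15 in Foxp3GFP, where 1 was lower. Over all measured genes 12.6% in Foxp3CNS1- and 14.1% in Foxp3GFP were past it in either direction, so the Foxp3CNS1- count is near that share. Ccr2 had 94.9 and 152 CPM in colonized Foxp3CNS1- and Foxp3GFP, against 16.8 and 22.4 CPM in germ-free Foxp3CNS1- and Foxp3GFP, with log2 ratios of 2.49 and 2.76. Cxcr6, a homing receptor of tissue effector cells, had log2 ratios of 1.04 and 0.99, and Vim, the intermediate filament vimentin, 0.52 and 0.91. The T cell genes had a summed 4541 to 4896 CPM in the 4 libraries, and none of the 5 was past 1.5-fold in either genotype.

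Markers of other cells were present in cluster 5 at low levels. The myeloid list summed to 375 and 232 CPM in colonized Foxp3CNS1- and Foxp3GFP, against 302 and 134 CPM in germ-free Foxp3CNS1- and Foxp3GFP, with 7 of 8 genes detected and Itgam at 0. Lyz2, lysozyme of myeloid cells, was found in 16 and 6 cells of the colonized libraries and in 3 and 1 cells of the germ-free ones, in the same order of genotypes. A single cell held 259 of 549 Lyz2 UMIs in colonized Foxp3CNS1- and 31 of 52 in colonized Foxp3GFP. In germ-free Foxp3CNS1- a single cell held 65 of 75, so the myeloid sums rest in part on single cells. Cells with a Lyz2 UMI held 15.6% of the Lgals3 and 3.67% of the S100a4 UMIs of cluster 5. Without them the log2 ratio of Lgals3 was 3.19 in Foxp3CNS1- and 1.48 in Foxp3GFP, and that of S100a4 was 1.62 and 0.54. The B lineage list summed to 814 and 988 CPM in colonized Foxp3CNS1- and Foxp3GFP, against 1088 and 950 CPM in germ-free Foxp3CNS1- and Foxp3GFP. Without the 27.1% to 37.2% of cluster 5 cells in a library that held at least 10 immunoglobulin UMIs or 2 myeloid or B lineage markers, 2 genes in Foxp3CNS1- and 1 in Foxp3GFP were past 1.5-fold. The log2 ratio of S100a6 was then 0.49 in Foxp3CNS1- and 0.20 in Foxp3GFP, and that of Lgals1 was 0.57 and 0.48. The rule takes in Ighm and Cst3, which had a UMI in 49.4% and 20.4% of naive-like cells. With such common markers left out of the rule, 6.71% to 10.5% of cells were dropped and 4 genes were past 1.5-fold in each genotype.

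Nearly all cells of cluster 5 fell into 4 of the authors' subsets, named s3, s4, s5 and s7, with 888, 214, 256 and 329 of its 1693 cells. Subsets s0 and s8 held another 2 and 4 cells. Subset s7 held 21.2% of the UMIs and 47.1% of the S100a4 UMIs. It made up 18.8% and 20.1% of cluster 5 cells in colonized Foxp3CNS1- and Foxp3GFP, against 23.2% and 14.9% in germ-free Foxp3CNS1- and Foxp3GFP. In s7, 6 of 8 genes in Foxp3CNS1- and 7 of 8 in Foxp3GFP were past 1.5-fold, all higher in colonized mice, against 16.9% of 2154 and 23.2% of 947 measured genes in either direction.

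Lgals1 in s7 had 2372 and 2850 CPM in colonized Foxp3CNS1- and Foxp3GFP, against 1173 and 860 CPM in germ-free Foxp3CNS1- and Foxp3GFP. The log2 ratio was 1.02 in Foxp3CNS1- and 1.73 in Foxp3GFP. Anxa2, which hardly differed over the whole cluster, had 240 and 254 CPM in the colonized Foxp3CNS1- and Foxp3GFP cells of s7, against 112 and 82.5 CPM in the germ-free ones, on 22 and 7 UMIs. Its log2 ratio there was 1.10 (0.45 to 1.82) in Foxp3CNS1- and 1.62 (0.50 to 2.99) in Foxp3GFP. The colonized and germ-free libraries did not overlap for either gene.

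In subset s5 Anxa2 and S100a11 were lower in colonized mice of both genotypes. Anxa2 in s5 had 82.1 and 110 CPM in colonized Foxp3CNS1- and Foxp3GFP, against 160 and 219 CPM in germ-free Foxp3CNS1- and Foxp3GFP, with log2 ratios of -0.97 (-1.76 to -0.13) and -0.99 (-1.77 to -0.21). S100a11 in s5 had 858 and 960 CPM in colonized Foxp3CNS1- and Foxp3GFP, against 1163 and 1232 CPM in germ-free Foxp3CNS1- and Foxp3GFP. S100a4 in s5 had 52.2 and 49.8 CPM in colonized Foxp3CNS1- and Foxp3GFP, against 32.1 and 318 CPM in germ-free Foxp3CNS1- and Foxp3GFP, on 28 and 14 against 4 and 42 UMIs. In Foxp3GFP its log2 ratio there was -2.67 (-3.66 to -1.77), and the 42 germ-free UMIs lay in 13 cells. S100a6 in s5 was at -0.69 (-1.17 to -0.21) in Foxp3GFP and at 0.40 (-0.15 to 1.0) in Foxp3CNS1-. In s3, the largest subset, Anxa2 was lower in colonized mice too, at -0.69 (-1.33 to -0.02) in Foxp3CNS1-. In Foxp3GFP it was at -0.54 (-1.57 to 0.49) in s3, on 19 and 17 UMIs, which is under the minimum. In s4 it had too few UMIs to be counted in either genotype. The small ratio of Anxa2 over cluster 5 is thus a sum over subsets that differed in direction. The s5 values here are for the 256 cells of s5 in cluster 5. Another 270 cells of s5 were in the Treg-like cluster 0 and 83 in cluster 9, and the difference between subsets was not tested.

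S100a4 in s7 had 344 and 602 CPM in colonized Foxp3CNS1- and Foxp3GFP, against 86.3 and 212 CPM in germ-free Foxp3CNS1- and Foxp3GFP. Its log2 ratios in s7 were 2.0 in Foxp3CNS1- and 1.5 in Foxp3GFP. In Foxp3GFP the ratio over cluster 5 depended on both s7 and s5. Without s7 S100a4 was at -0.18 in Foxp3GFP and at 1.53 in Foxp3CNS1-, and without s5 it was at 1.43 and 1.82. In the other subsets of Foxp3GFP it was at 1.05 (-0.00054 to 2.32) in s4, on 75 UMIs in colonized and 8 in germ-free mice, and at 0.30 (-0.56 to 1.20) in s3. Leaving out s7 put S100a6 at 0.44 and Lgals1 at 0.33 in Foxp3GFP, and at 0.73 and 0.56 in Foxp3CNS1-. Without s5, 5 genes were past 1.5-fold in Foxp3GFP, with Anxa2 at 0.80, and 4 in Foxp3CNS1-. Leaving out s7 or s5 was chosen after seeing the data.

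**Figure D4:**
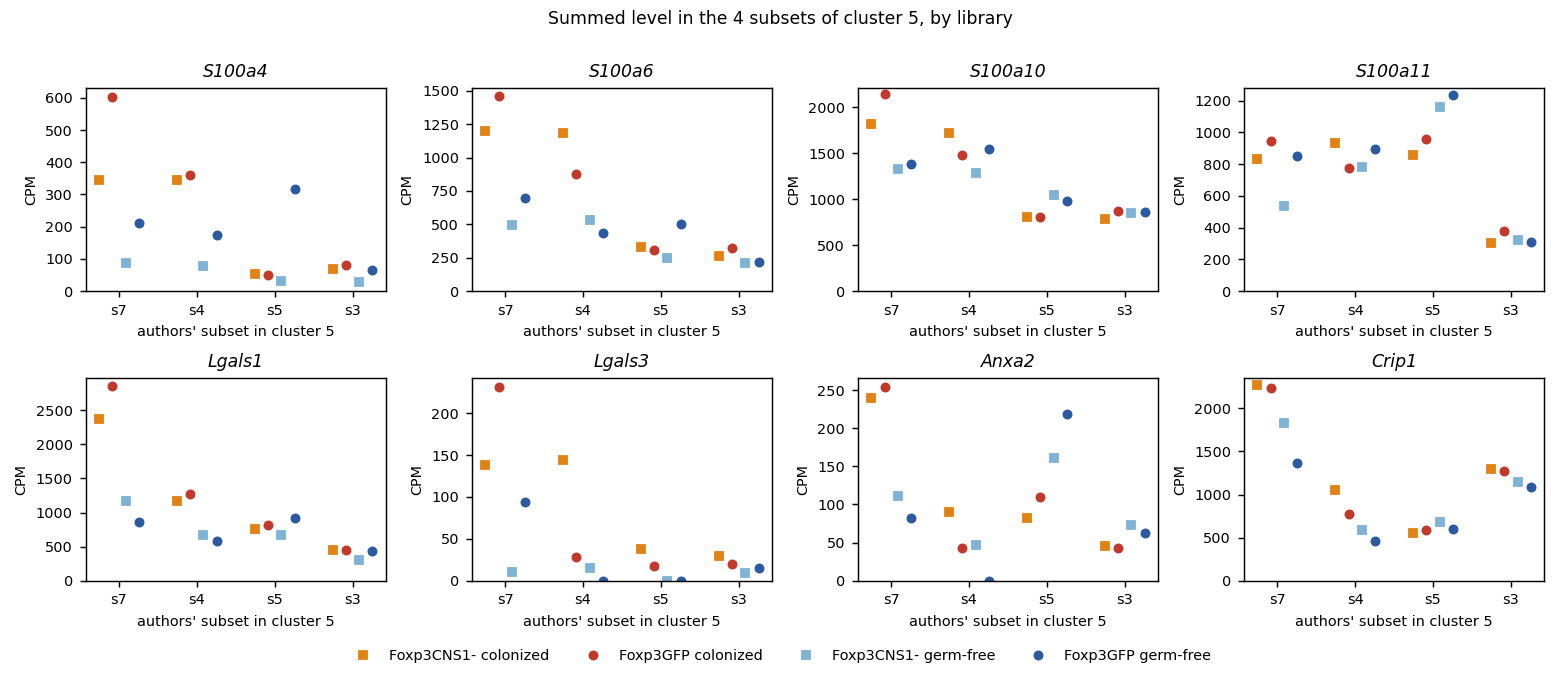
Summed level (CPM) of each gene in subsets s7, s4, s5 and s3 of cluster 5, with 1 point for each library. In s7 Lgals1 is at 2372 and 2850 CPM in the colonized libraries and at 1173 and 860 CPM in the germ-free ones, while Anxa2 in s5 and s3 is lower in the colonized libraries.

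In Treg-like cells S100a4 and S100a6 were again higher in colonized mice, and both were past 1.5-fold in each genotype. Lgals3 had too few UMIs here. The genes past it were 2 of 7 measured in Foxp3CNS1-, where 8.2% of 8735 genes were past it, and 2 of 7 in Foxp3GFP, where 7.91% of 8075 were. S100a6 had 172 and 165 CPM in colonized Foxp3CNS1- and Foxp3GFP, against 93.7 and 91.0 CPM in germ-free Foxp3CNS1- and Foxp3GFP, and its log2 ratios were 0.88 and 0.86. S100a4 had 30.6 and 30.02 CPM in colonized Foxp3CNS1- and Foxp3GFP, against 18.9 and 18.4 CPM in germ-free Foxp3CNS1- and Foxp3GFP, with log2 ratios of 0.70 and 0.71. The germ-free S100a4 levels rest on 67 and 59 UMIs. The B lineage list summed to 1746 and 1511 CPM in colonized Foxp3CNS1- and Foxp3GFP Treg-like cells, against 1454 and 1346 CPM in germ-free Foxp3CNS1- and Foxp3GFP. The cells that held at least 10 immunoglobulin UMIs or 2 myeloid or B lineage markers made up 40.3% to 48.7% of a library's Treg-like cells. Without them S100a4 was at -0.14 in Foxp3CNS1- and 1.80 in Foxp3GFP, and none of the genes was past 1.5-fold in Foxp3CNS1-. In cells with a Foxp3 UMI S100a4 was at 2.33 in Foxp3CNS1- and 0.03 in Foxp3GFP, so its ratio depended on the cells used. Of 15 other settings S100a4 was past 1.5-fold in 11 in Foxp3CNS1- and had the other sign in 1. In Foxp3GFP it was past 1.5-fold in 11 of 14 and kept its sign in all of them. Over 15 other settings in each genotype S100a6 ran between 0.47 and 1.31 in Foxp3CNS1-, past 1.5-fold in 13, and between 0.62 and 1.07 in Foxp3GFP, past it in 15.

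Lgals1 in Treg-like cells had 295 and 293 CPM in colonized Foxp3CNS1- and Foxp3GFP, against 223 and 203 CPM in germ-free Foxp3CNS1- and Foxp3GFP. Crip1 had 658 and 672 CPM in colonized Foxp3CNS1- and Foxp3GFP, against 473 and 561 CPM in germ-free Foxp3CNS1- and Foxp3GFP. For both genes the colonized libraries lay above the germ-free ones, and the log2 ratios stayed under 1.5-fold, between 0.26 and 0.53. S100a11 went the other way in Foxp3CNS1-, with 300 CPM in colonized and 403 CPM in germ-free mice (log2 ratio -0.42, -0.52 to -0.33), and hardly differed in Foxp3GFP, with 258 CPM in colonized and 267 CPM in germ-free mice.

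In naive-like cells, held mostly by cluster 1 in the colonized and by cluster 2 in the germ-free libraries, the genes differed little. S100a4 and Lgals3 had too few UMIs to be counted, as did Anxa2 in Foxp3CNS1- under colonization. None of 5 measured genes was past 1.5-fold in Foxp3CNS1-, where 7.73% of 7207 genes were. In Foxp3GFP 1 of 6 was, against 7.04% of 7613 genes. That gene was S100a6, with 17.6 CPM in colonized and 9.12 CPM in germ-free Foxp3GFP (log2 ratio 0.95, 0.36 to 1.57). In Foxp3CNS1- it had 16.9 CPM in colonized and 14.9 CPM in germ-free mice. Crip1, the gene that naive-like cells share with cluster 5, had 877 and 884 CPM in colonized Foxp3CNS1- and Foxp3GFP, against 925 and 894 CPM in germ-free Foxp3CNS1- and Foxp3GFP.

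Between genotypes few of the genes differed. In cluster 5 of germ-free mice 1 of 7 measured genes was past 1.5-fold, against 8.04% of 3382 genes, and in colonized mice 1 of 8, against 7.28% of 6252 genes. In both cases that gene was S100a4, lower in Foxp3CNS1-. Its log2 ratio of Foxp3CNS1- over Foxp3GFP came to -0.60 (-0.82 to -0.38) under colonization and to -1.74 (-2.32 to -1.18) without microbes. Of the 86 germ-free Foxp3GFP UMIs of S100a4, 42 came from 13 cells of subset s5 and 70.9% from 10 cells, and without s5 the germ-free ratio was -1.10. The other 7 genes had ratios between -0.26 and 0.09 in colonized mice. The S100a4 difference in colonized mice is at the edge of the 1.5-fold line. It stayed past the line under 5 of 17 other settings and had the opposite sign under 1, and it was -0.07 with every cell thinned to 1500 UMIs. In germ-free mice Lgals3 had only 7 UMIs in Foxp3CNS1- and 12 in Foxp3GFP and was not counted.

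In germ-free Treg-like cells S100a11 was higher in Foxp3CNS1-, with 403 CPM against 267 CPM in Foxp3GFP (log2 ratio 0.59, 0.47 to 0.72). It was 1 of 7 measured genes past 1.5-fold, against 5.28% of 7916 genes, and it passed by a small margin. Under 7 of 15 other settings it was not past the line, among them size factors by the median of ratios (0.54) and cells with a Foxp3 UMI only (0.40). The follicular helper list, whose cluster 9 had the highest S100a11 level, summed to 326 CPM in germ-free Foxp3CNS1- and 235 CPM in germ-free Foxp3GFP Treg-like cells, and its part in the S100a11 difference was not tested. In colonized Treg-like cells 0 of 7 genes were past 1.5-fold, against 3.9% of 8800 genes. In naive-like cells 1 of 6 was in germ-free mice, against 5.16% of 7364 genes, and 0 of 5 in colonized mice, against 4.81% of 7484 genes. The 1 gene was S100a6, with 14.9 CPM in germ-free Foxp3CNS1- and 9.12 CPM in germ-free Foxp3GFP, on 44 and 37 UMIs.

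Within each library, cells with a Foxp3 UMI could be set beside cells without one, which gives 4 paired values. A Foxp3 UMI was found in 18.3% and 24.4% of cluster 5 cells in colonized Foxp3CNS1- and Foxp3GFP, against 16.8% and 16.8% in germ-free Foxp3CNS1- and Foxp3GFP, or 150, 84, 55 and 34 cells. Since Foxp3 RNA is scarce, cells without a UMI include cells that express it. On the mean of the 4 libraries 4 of 8 genes were past 1.5-fold in cluster 5, 3 higher and 1 lower with Foxp3, against 14.6% of 6788 genes in either direction.

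S100a10 had 1439 and 1700 CPM in cells with a Foxp3 UMI in colonized Foxp3CNS1- and Foxp3GFP, and 1410 and 1527 CPM in those of germ-free Foxp3CNS1- and Foxp3GFP. In cells without a Foxp3 UMI it had 1051, 1084, 949 and 943 CPM in the same order of libraries. All 4 values with Foxp3 were above all 4 without it, and the mean log2 ratio was 0.59 ± 0.11 (SD, n = 4). That mean is at the edge of the 1.5-fold line. Under 6 of 15 other settings S100a10 was not past the line, though it kept its direction in all of them. Crip1 was higher with Foxp3 in 4 of 4 libraries as well, at 0.38 ± 0.14 (SD, n = 4), which is under 1.5-fold.

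S100a4 had 202 and 293 CPM in cells with a Foxp3 UMI in colonized Foxp3CNS1- and Foxp3GFP and 111 and 348 CPM in germ-free Foxp3CNS1- and Foxp3GFP, against 146, 218, 35.9 and 127 CPM in cells without one. The mean log2 ratio was 0.99 ± 0.63 (SD, n = 4) with 4 of 4 libraries higher, and the germ-free values with Foxp3 rest on 15 and 28 UMIs. S100a6 was higher with Foxp3 in 3 of 4 libraries, at 0.78 ± 0.92 (SD, n = 4), and lower in germ-free Foxp3CNS1-, at 244 CPM with and 322 CPM without Foxp3. Both of these means depended on which cells were used. Without the cells that held at least 10 immunoglobulin UMIs or 2 myeloid or B lineage markers they were -0.33 for S100a4 and -0.027 for S100a6, and S100a10 was at 0.33. With the narrower rule that leaves common markers aside they were 0.41, 0.32 and 0.44. Beside this, 2 of 3 measured B lineage genes were past 1.5-fold higher in the cells with Foxp3, with a median log2 ratio of 0.84. Over all 6788 measured genes 7.78% were past it higher.

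Anxa2 and S100a11 were lower with Foxp3 in 4 of 4 libraries. Anxa2 had 83.9 and 72.3 CPM in cells with a Foxp3 UMI in colonized Foxp3CNS1- and Foxp3GFP and 51.7 and 37.2 CPM in germ-free Foxp3CNS1- and Foxp3GFP, against 102, 116, 102 and 110 CPM in cells without one. All 4 values with Foxp3 were below all 4 without it, and the mean log2 ratio was -0.88 ± 0.54 (SD, n = 4). The counting intervals of the Anxa2 ratios were -0.79 to 0.20 in colonized Foxp3CNS1- and -1.42 to -0.0092 in colonized Foxp3GFP. They were -2.35 to 0.14 in germ-free Foxp3CNS1- and -3.89 to 0.069 in germ-free Foxp3GFP. Only that of colonized Foxp3GFP lay wholly on the lower side. S100a11 had 398, 523, 480 and 397 CPM with Foxp3, against 639, 768, 543 and 723 CPM without it, in the order colonized Foxp3CNS1-, colonized Foxp3GFP, germ-free Foxp3CNS1- and germ-free Foxp3GFP. Its mean log2 ratio was -0.57 ± 0.29 (SD, n = 4). The mean ratios of S100a10 and its partner Anxa2 thus lay on opposite sides. In the same contrast the Treg list had 9 of 11 measured genes past 1.5-fold higher and the follicular helper list 4 of 5 past it lower. Over all 6788 measured genes 7.78% were past it higher and 6.81% lower. The Treg list names Foxp3, the gene that splits these cells. The part of both lists in these differences was not tested.

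In Treg-like cells, 0 of 7 measured genes were past 1.5-fold with against without a Foxp3 UMI, against 5.98% of 9555 genes. The directions were the same as in cluster 5 for some: S100a11 was lower with Foxp3 in 4 of 4 libraries (mean log2 ratio -0.38 ± 0.17, SD, n = 4), and S100a6 (0.41 ± 0.37), Lgals1 (0.39 ± 0.15) and S100a10 (0.15 ± 0.07) were higher in 4 of 4. Median depth was 2627 UMIs in the cells with and 2304 in the cells without a Foxp3 UMI.

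**Figure D5:**
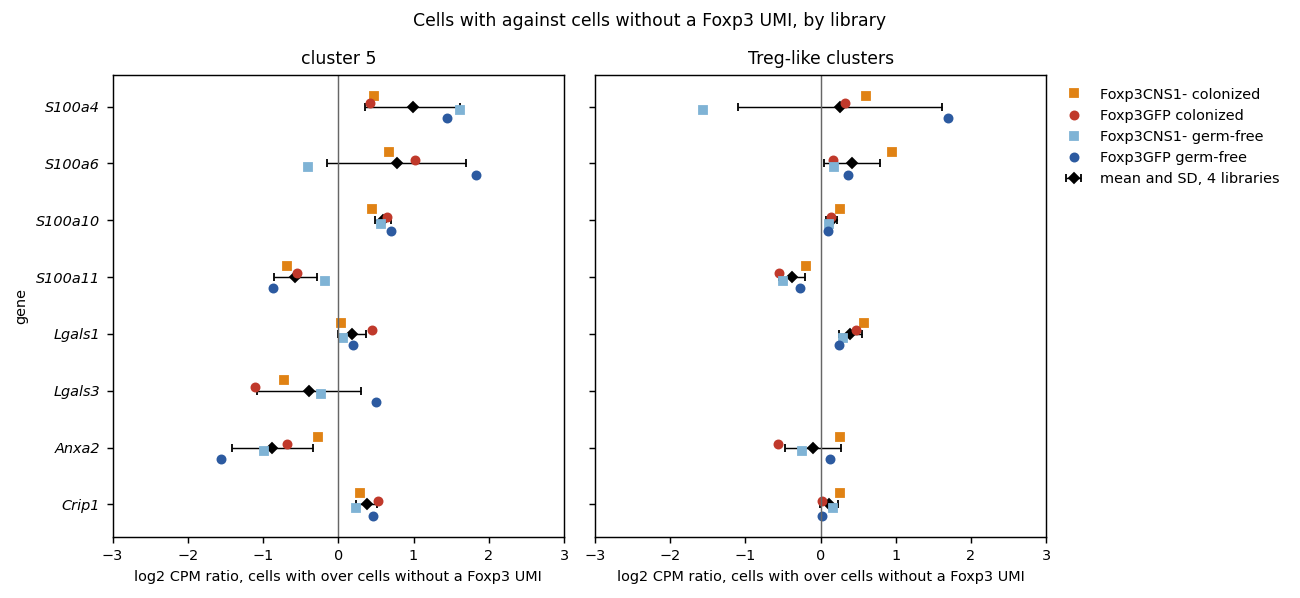
Log2 ratio of CPM in cells with over cells without a Foxp3 UMI for the 8 genes in cluster 5 and the Treg-like class, with 1 point for each library and the mean. In germ-free Foxp3GFP no cluster 5 cell with a Foxp3 UMI had an Lgals3 UMI. That Lgals3 point, at 0.50, was computed as if these cells held 3 UMIs, and it enters the mean. In cluster 5 S100a10 is above 0 and Anxa2 and S100a11 are below 0 in 4 of 4 libraries.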

How the data were processed

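The deposited count table holds UMI counts per gene and cell. The submitters' processing notes name Cell Ranger, Scanpy 1.5.1 and the build mm10 for the authors' steps. It was checked to hold whole numbers of at least 0 for 17478 cells and 13314 genes. For 17251 cells the authors also deposited the library, cluster and subset. The 303 cells it marks as removed and the 227 without an entry were left out, and 3 of its columns were not used.

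The members and lists were chosen with earlier results of these data known. UMIs of each class were added up in each library and expressed as CPM. Ratios needed 50 or more UMIs in the pair of libraries and carry exact Clopper-Pearson 95% intervals. A gene without a UMI on 1 side was given 3 UMIs there before the ratio was taken. Genes are named as past 1.5-fold in either direction. Intervals cover counting error only. With 1 library per group no test was made. Doublets were not called, and the sources used here do not say whether they had been removed. The ratio calculation was tested on simulated data. Of the alternatives, 11 were planned and 7 were added after seeing the data. The genes named are all 8 members, the list genes given as examples, and the 8 most and 5 least similar genes. Python 3.11.15, numpy 2.4.6, pandas 2.3.3, scipy 1.17.1 and matplotlib 3.10.9 were used.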

Additional observations from a re-analysis of the deposited data

Results flagged for a closer look

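The 303 cells that the authors removed entered no comparison, and 7 of the 8 genes had higher levels in them than in the 16948 analysed cells. S100a4 had 86.6 CPM in the removed cells, against 38.2 CPM in the analysed cells. S100a6 had 354 against 155 CPM, S100a10 had 652 against 591 CPM and S100a11 had 522 against 275 CPM. Lgals3 had 48.5 against 13.9 CPM, Anxa2 had 113 against 38.9 CPM and Crip1 had 1107 against 835 CPM. Of the removed cells, 190 had a UMI of Ccl5, a chemokine of cytotoxic and memory T cells, and 121 had at least 3 B lineage markers. S100a4 had 114 CPM in the cells with Ccl5 and 49.2 CPM in those with B lineage markers.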

How the results depend on the processing

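Over 14 comparisons and 216 alternative counts, 162 stayed within 1.5 times the main count. No paired analysis was possible because each group has 1 library, while the Foxp3 UMI comparison pairs cells within a library by its design. Of 1441 member values under alternatives, 1303 kept their sign. Without immunoglobulin-rich or myeloid or B lineage marker cells, S100a4 in cluster 5 turned to 0.17 between genotypes in colonized mice and to -0.33 for the Foxp3 UMI, S100a6 to -0.027 for the Foxp3 UMI, and S100a4 in Foxp3CNS1- Treg-like cells under colonization to -0.14. The cause was not tested.

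In cluster 5 the count of genes past 1.5-fold under colonization in Foxp3GFP became 1 with Foxp3 UMI cells only, without marker cells and without subset s7, and 5 without subset s5, and in Foxp3CNS1- 2 without marker cells. Between genotypes in germ-free mice it became 2 on thinning or with no UMI minimum and 0 at 200 UMIs, and in colonized mice 0 under 11 settings. For the Foxp3 UMI it became 2 under both marker settings. In Treg-like cells it became 1 under colonization in Foxp3GFP (200 UMIs, equal cluster weights), 1 (thinned, mean of single cells) or 0 (no Foxp3 UMI, no marker cells) in Foxp3CNS1-. Between genotypes there it became 0 under 7 settings and 2 under 2 in germ-free mice and 1 under 2 in colonized mice, and 1 without marker cells for the Foxp3 UMI. In naive-like cells it became 3 in Foxp3GFP and 2 in Foxp3CNS1- with no minimum, 0 in Foxp3GFP at 200 UMIs or with Foxp3 UMI cells, 0 under 5 settings and 2 under 5 between genotypes in germ-free mice, and 2 with no minimum in colonized mice. Few UMIs limit Lgals3, S100a4 in naive-like cells, and the germ-free S100a4 and Anxa2 values of cluster 5 cells with a Foxp3 UMI.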
